A study of Mus musculus with 4 samples.

Results

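The genes described here were 10 forkhead genes, Foxc1, Foxc2, Foxf1, Foxf2, Foxl1, Foxl2, Foxq1, Foxe1, Foxe3 and Foxs1, out of 44 protein-coding forkhead genes and 21938 protein-coding genes in the mm10 annotation. They were chosen by name, with earlier results of these data known, so counts over them are descriptive. Their peaks were the H3K27me3 peaks lying in the gene or within 20 kb of it, and peaks that the annotated tables assigned to them were also read. H3K27me3 was profiled by CUT&RUN, in which an antibody binds the histone mark in permeabilised cells or nuclei and a tethered nuclease releases the DNA nearby for sequencing, in erythro-myeloid progenitors (EMPs) sorted from E10.5 yolk sac of C57BL/6 mice. There was 1 library from 500 EMPs and 1 from 15000 EMPs, and the IgG control libraries of both cell numbers were not analysed here. All 4 libraries carried the genotype label Ezh2fl/fl; Tie2-Cre+/+ together with the words Wild type, and were read as wild type, so Ezh2 was taken to be present in every library. Tie2-Cre, which in this line is meant to act in endothelium and the blood cells that come from it, would delete Ezh2 only in animals that carry the transgene.

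The library from 500 EMPs was amplified for 17 cycles and read as 76-bp pairs, while the library from 15000 EMPs was amplified for 16 cycles and read as 59-bp pairs on another instrument. The authors also called its peaks at a less strict threshold, and by their account the library from 500 EMPs was sequenced to a lower depth with a smaller share of its reads aligned. Cell number, amplification, read length, instrument, depth, alignment and threshold therefore cannot be told apart in any difference between the libraries. The peak lists hold positions without heights or read counts, so the values below are lengths and counts of called peaks. With 1 library at each cell number there was no replicate error and no test was made. The lists held 10223 peaks with 500 EMPs and 15282 with 15000 EMPs, of median width 363 and 770 bp. Within 3 kb of the start, 9.92% of protein-coding genes had a peak in the smaller library and 17.0% in the larger. Beside this, the 14 EMP markers had none in the smaller library and 1, Gata2, in the larger, counts too low to be set apart from these shares. Of 5 mesenchyme markers 4 were marked in each library. Sox17 was the only one of 4 visceral endoderm markers with such a peak, and of 5 endothelium markers Sox17 had one in both libraries and Kdr in the larger alone.

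H3K27me3 is laid down by Polycomb repressive complex 2, whose catalytic subunit is EZH2 or EZH1, and it marks developmental regulator genes that a cell type keeps silent. It tends to spread over CpG-rich gene starts and the DNA around them. Forkhead proteins bind DNA through a winged-helix domain. The FOXF and FOXL1 factors act in the mesenchyme that lies under gut and lung epithelium, downstream of hedgehog signals. Foxf1 is also needed in extraembryonic mesoderm, including that of the yolk sac, and FOXC factors act in mesoderm and in blood and lymph vessels. The remaining genes are best known from other organs, FOXL2 from the ovary, FOXE1 from the thyroid, FOXE3 from the lens and FOXQ1 from the hair shaft.

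H3K27me3 peaks lay within 3 kb of the start of 9 of the 10 genes in both libraries. The same was true of 9.92% of protein-coding genes with 500 EMPs and 17.0% with 15000 EMPs. The exception was Foxs1, which had no peak within 3 kb in either library. Among the other 34 forkhead genes, 15 (44.1%) had such a peak with 500 EMPs and 18 (52.9%) with 15000 EMPs. Within 20 kb of the 10 genes there were 86 peaks with 500 EMPs and 46 with 15000 EMPs. The smaller number of peaks covered more DNA, 161089 bp against 76643 bp.

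**Figure D1:**
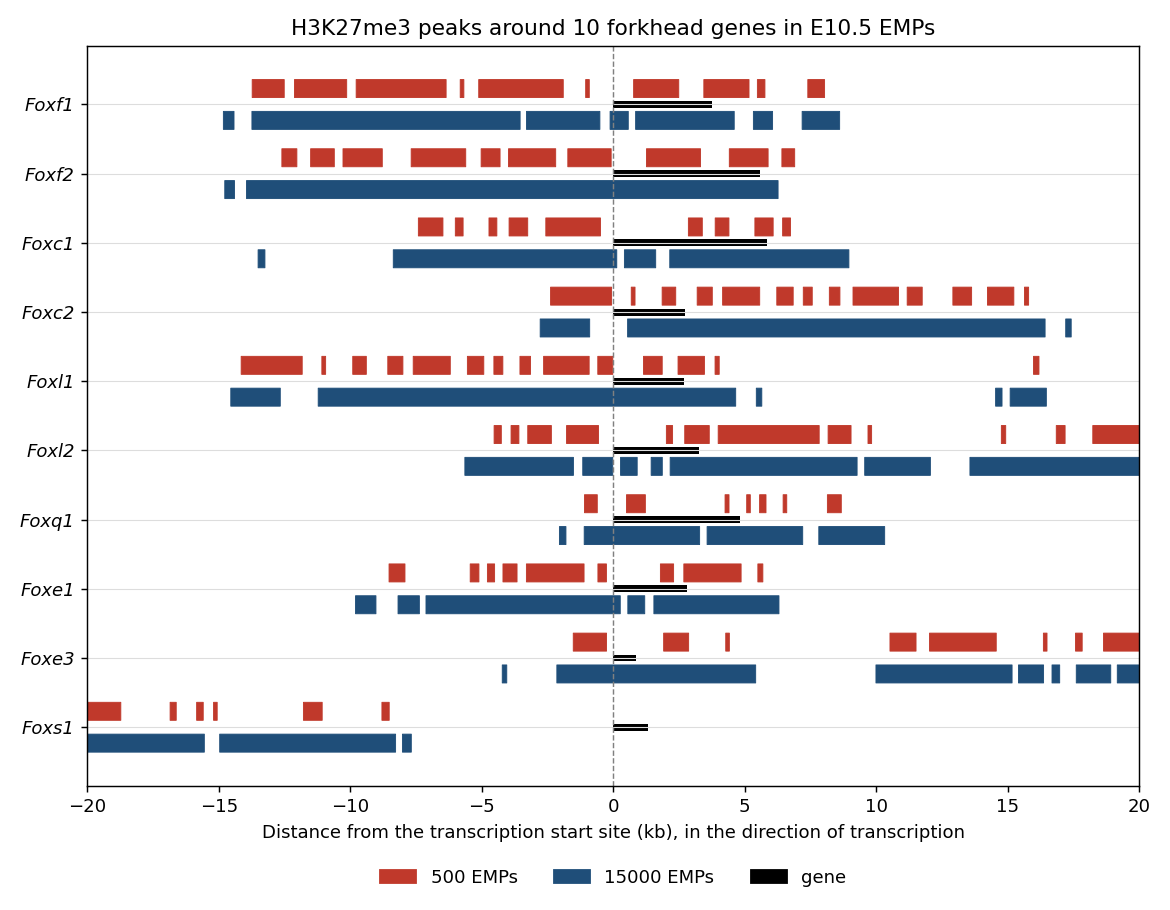
H3K27me3 peaks around each of the 10 genes, drawn by distance from the transcription start site in kb and in the direction of transcription, with peaks from 500 EMPs in red, peaks from 15000 EMPs in blue and the gene in black. The red peaks leave the start itself open at all 10 genes, and Foxs1 is the only gene with no peak of either colour near its start.

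These 3 upstream sequences are shown because they span the contrast between the libraries at the start, with a long peak over all of their bases with 15000 EMPs and a part or none of them under a peak with 500 EMPs. They were taken from the RefSeq promoter table (GRCm38), read 5′ to 3′ on the strand of the gene, and end before the annotated gene start. Capitals mark CpG dinucleotides. Foxf2 (chr13:31625566-31625815, plus strand) and Foxc1 (chr13:31806396-31806632, plus strand) held 21 and 29 CpGs in 250 and 237 bases. Foxe3 (chr4:114926068-114926317, minus strand), picked for contrast after its values were seen, held 6 in 250.
Foxf2: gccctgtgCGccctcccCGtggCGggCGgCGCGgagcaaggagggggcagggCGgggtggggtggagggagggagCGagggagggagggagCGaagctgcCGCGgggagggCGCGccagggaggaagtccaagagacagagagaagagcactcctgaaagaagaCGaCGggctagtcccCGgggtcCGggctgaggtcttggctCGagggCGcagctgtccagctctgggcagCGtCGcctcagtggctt
Foxc1: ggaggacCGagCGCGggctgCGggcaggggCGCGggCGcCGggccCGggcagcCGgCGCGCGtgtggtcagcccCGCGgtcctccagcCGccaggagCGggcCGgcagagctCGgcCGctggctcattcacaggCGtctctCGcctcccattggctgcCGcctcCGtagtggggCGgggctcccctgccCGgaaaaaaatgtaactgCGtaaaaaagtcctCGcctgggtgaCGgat
Foxe3: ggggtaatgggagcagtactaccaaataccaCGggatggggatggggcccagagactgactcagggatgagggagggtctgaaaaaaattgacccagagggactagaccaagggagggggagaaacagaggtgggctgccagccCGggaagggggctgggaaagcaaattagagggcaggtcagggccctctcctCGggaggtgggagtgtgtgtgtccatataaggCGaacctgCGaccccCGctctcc
With 15000 EMPs, 250 of the 250 Foxf2 bases, 237 of the 237 Foxc1 bases and 250 of the 250 Foxe3 bases lay under a peak. With 500 EMPs the figures were 173, 0 and 51. The promoter table held 4 of the 10 genes, the fourth being Foxl2. Of the 300 bases of the Foxl2 promoter, 88 lay under a peak with 15000 EMPs and 0 with 500 EMPs. That promoter is set by a RefSeq start 319 bp from the Foxl2 start used elsewhere here. The 300-base promoters of the 4 genes contained 27 (Foxf2), 32 (Foxc1), 27 (Foxl2) and 10 (Foxe3) CpGs, against a median of 7 over 32851 promoters. Of all promoters, 9.52% held at least as many CpGs as that of Foxc1 and 43.5% at least as many as that of Foxe3. Foxc2, Foxf1, Foxl1, Foxq1, Foxe1 and Foxs1 were not matched in the table.

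The FOXF genes come first, and Foxf2 held the widest peak near any of the 10 genes. At Foxf2 (chr13:31625816-31631403, plus strand, 2 exons), there were 10 peaks of 486 to 2074 bp with 500 EMPs, and with 15000 EMPs a peak of 20219 bp. That peak ran from 13947 bp upstream to 6271 bp downstream of the start, took in the whole gene, and was the 19th widest of the 15282. It overlapped 9 of the 10 peaks seen with 500 EMPs. Within 3 kb of the Foxf2 start 4195 bp were covered with 500 EMPs and all 6001 bp with 15000 EMPs. Only 63 protein-coding genes (0.287%) reached the Foxf2 length with 500 EMPs, Foxf2 included.

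At Foxf1 (chr8:121084386-121088144, plus strand, 2 exons), most of the covered DNA lay upstream. Its widest peak with 15000 EMPs, 10201 bp, stretched from 13741 to 3541 bp before the start, over Fendrr, a long noncoding RNA gene transcribed the other way. With 500 EMPs the widest peak there measured 3421 bp. A separate peak of 691 bp sat over the Foxf1 start with 15000 EMPs, and no peak from 500 EMPs overlapped it. Within 3 kb of the start 2954 bp were covered with 500 EMPs and 5332 bp with 15000 EMPs. Within 20 kb of the gene 14472 bp were covered with 500 EMPs and 19993 bp with 15000 EMPs, a ratio of 1.38 and the lowest among the 10 genes.

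Foxl1, the gut mesenchyme factor, and Foxc2, the factor of lymphatic and paraxial mesoderm, shared a domain. With 15000 EMPs a peak of 15880 bp (chr8:121116720-121132599), the 46th widest, began 549 bp inside Foxc2 (chr8:121116171-121118895, plus strand, 1 exon) and ended 4659 bp beyond the start of Foxl1 (chr8:121127940-121130644, plus strand, 1 exon). It filled all 9044 bp between these genes. With 500 EMPs 12 separate peaks overlapped the 15880 bp, 7 of them between the genes. Foxl1 was covered over all 6001 bp within 3 kb of its start with 15000 EMPs and over 3548 bp with 500 EMPs. Foxc2 had 4334 and 2980 bp covered.

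The start of Foxc2 differed from those of its neighbours. With 15000 EMPs it lay in a gap of 1443 bp, from a peak ending 895 bp upstream to the wide peak starting 549 bp downstream. With 500 EMPs a peak of 2321 bp came to within 61 bp of the start, and the gap was 748 bp. The DNA just before the Foxc2 start was thus under a peak in the smaller library and under none in the larger. Both libraries left the start itself uncovered.

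Foxc1 (chr13:31806633-31812476, plus strand, 1 exon), the paralogue of Foxc2 in mesoderm and vessels, had 2218 bp covered within 3 kb with 500 EMPs and 5173 bp with 15000 EMPs. Its widest peak with 15000 EMPs, 8500 bp, crossed the start and ended 135 bp into the gene. A peak of 1189 bp further into the gene, 428 to 1616 bp from the start, had no counterpart with 500 EMPs. With 500 EMPs nothing was called between 485 bp upstream and 2861 bp downstream, an open stretch of 3345 bp and the longest among the 9 genes with a peak near the start.

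Foxl2 (chr9:98955288-98958543, plus strand, 1 exon) shares its start with Foxl2os, a noncoding gene on the other strand that begins 11 bp away. With 15000 EMPs its start lay in a gap of 298 bp, 18 bp from one peak and 281 bp from the next, and 4516 bp within 3 kb were covered. With 500 EMPs the gap measured 2582 bp and 2378 bp were covered. The RefSeq start of Foxl2 lies 319 bp downstream of the start used here, under the peak that begins at 281 bp with 15000 EMPs. The open start of Foxl2 in that library therefore depends on the annotation. Foxl2 had the most covered DNA within 20 kb of the gene with 15000 EMPs, 23171 bp or 53.6%, much of it downstream in peaks of 7110 and 7067 bp. The annotated tables gave none of the peaks inside Foxl2 to that gene. All 3 with 15000 EMPs and both with 500 EMPs carried the name Foxl2os, so a search of the tables by symbol finds only the upstream peaks of Foxl2.

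Foxe1 (chr4:46343609-46346412, plus strand, 1 exon) had 3029 bp covered within 3 kb with 500 EMPs and 5363 bp with 15000 EMPs. A peak of 7389 bp crossed its start in the larger library and ended 268 bp into the gene. At Foxe3 (chr4:114925147-114926013, minus strand, 1 exon) the values were 2215 and 5143 bp. Its gene body of 867 bp lay whole inside a peak of 7562 bp with 15000 EMPs and had no covered base with 500 EMPs, where the nearest peaks stopped 254 bp upstream and resumed 1920 bp downstream of the start. Further peaks near Foxe3 were annotated to another forkhead gene, Foxd2, and to its antisense partner Foxd2os. The starts of Foxd2 and Foxd2os lie 17140 and 16756 bp from that of Foxe3, and whether the peaks belong to them was not tested.

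Foxq1 (chr13:31556134-31560976, plus strand, 1 exon) was the least covered of the 9 genes with 500 EMPs. It had 1203 bp under peaks within 3 kb of its start and 2398 bp within 20 kb of the gene, in 7 peaks none of which exceeded 717 bp. With 15000 EMPs these lengths were 4350 and 10778 bp, ratios of 3.62 and 4.49, the highest ratios of the 10 genes for the 3-kb window and for the 20-kb region. A peak of 4390 bp then crossed the start, and 94.1% of the gene was covered against 17.9%. A530084C06Rik lies on the other strand over the same DNA, so these peaks cannot be assigned to either gene by position.

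Foxs1 (chr2:152931898-152933208, minus strand, 1 exon), which is expressed in vascular mural and neural crest derived cells, had no base covered within 3 kb of its start or in its gene body. The nearest peak lay 8521 bp upstream with 500 EMPs and 7680 bp upstream with 15000 EMPs. Wide peaks of 6690 and 7451 bp stood beyond that with 15000 EMPs, over Dusp15, whose start was under a peak in the larger library. Counted downstream from the Foxs1 start, the next peak lay at 20291 bp in the larger library, in Mylk2, and at 306437 bp with 500 EMPs. The 2879 and 12217 bp covered within 20 kb of Foxs1 were therefore all at Dusp15, upstream of it or in Mylk2.

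**Figure D2:**
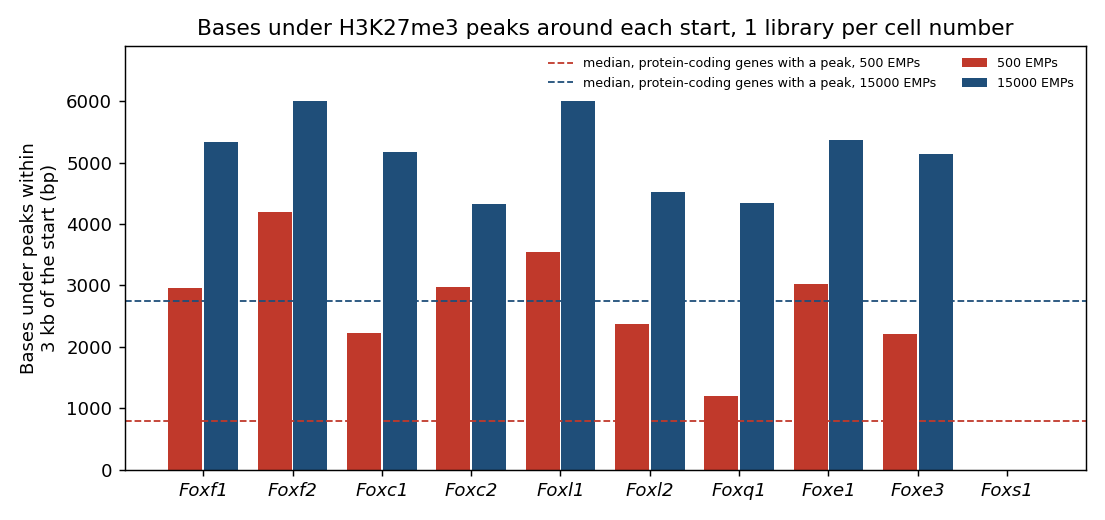
Bases under H3K27me3 peaks within 3 kb of the start of each gene, with 1 bar for each library and dashed lines at the median over protein-coding genes with a peak (789 bp with 500 EMPs, 2743 bp with 15000 EMPs). All genes but Foxs1, which is at 0 in both libraries, lie above the line of each library.

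In order of length with 15000 EMPs, Foxf2 and Foxl1 stood first at 6001 bp and were followed by Foxe1, Foxf1, Foxc1, Foxe3, Foxl2, Foxq1 and Foxc2, the last at 4334 bp. With 500 EMPs the order began with Foxf2, Foxl1 and Foxe1 again and ended with Foxc1 (2218 bp), Foxe3 (2215 bp) and Foxq1 (1203 bp). Without replicates no neighbours in these orders can be told apart. The median over the 10 genes was 2666 bp with 500 EMPs and 5158 bp with 15000 EMPs. Over all other forkhead genes the medians were 0 and 1072 bp, and over all protein-coding genes they were 0 in both libraries. Among genes with a peak within 3 kb alone, the medians were 2954 and 5173 bp over the 9 genes, 2300 and 4733 bp over other forkhead genes and 789 and 2743 bp over protein-coding genes. A peak wider than 5 kb lay within 20 kb of 9 of the 10 genes with 15000 EMPs, Foxq1 being the exception, against 11 of the other 34 forkhead genes (32.4%) and 5.11% of protein-coding genes. The 9 include Foxs1, whose wide peaks lay at Dusp15, and Foxc2 and Foxl1, which share theirs. With 500 EMPs none of the 10 and none of the other 34 forkhead genes had one, against 0.273% of protein-coding genes.

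The libraries differed at the gene starts. With 500 EMPs no peak crossed the start of any of the 10 genes, against 1.40% of all protein-coding genes, so the count does not set these genes apart. From the start to 500 bp downstream, none of the 10 was covered at any of the positions read at steps of 100 bp. At the positions from 300 to 1500 bp upstream, 5 to 8 of the 10 were. With 500 EMPs, 12.3 to 16.4% of protein-coding genes with a peak and 33.3 to 46.7% of other forkhead genes with a peak were covered from the start to 500 bp downstream. From 300 to 1500 bp upstream the shares were 19.4 to 24.9% and 26.7 to 46.7%. Around the 9 starts with a peak nearby, the open stretch ran from 748 bp at Foxc2 to 3345 bp at Foxc1. With 15000 EMPs a peak crossed the start of 7 of the 10 genes, against 8.63% of protein-coding genes, the exceptions being Foxc2, Foxl2 and Foxs1. The Foxl2 exception depends on the annotation, because its RefSeq start lay under a peak with 15000 EMPs. Of the genes with a peak within 3 kb, the start itself was covered in 14.1% of protein-coding genes with 500 EMPs and 50.8% with 15000 EMPs. Among the other forkhead genes with a peak the counts were 5 of 15 and 11 of 18. When peaks up to 1 kb apart were joined, 1 of the 10 starts was covered with 500 EMPs and 8 with 15000 EMPs. Joining up to 3 kb gave 8 and 9, which the gap lengths fix, since 8 of the 9 open stretches with 500 EMPs were 748 to 2582 bp long.

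**Figure D3:**
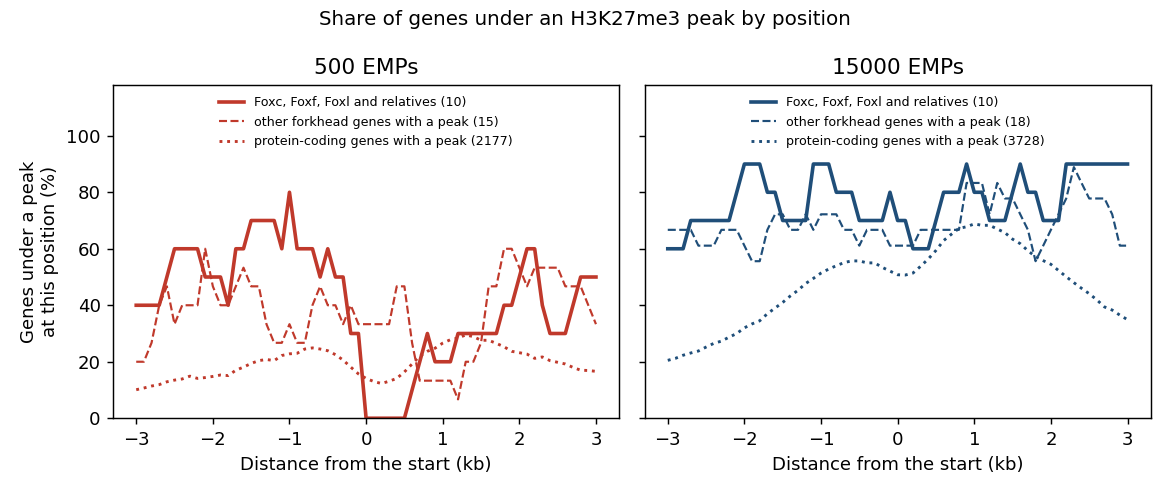
Percent of genes under an H3K27me3 peak at each distance from the start in kb, for the 10 genes (solid), other forkhead genes with a peak (dashed) and all protein-coding genes with a peak (dotted), with 500 EMPs on the left and 15000 EMPs on the right. With 500 EMPs the line of the 10 genes falls to 0 over the first 500 bp of the genes and upstream of the start it reaches at most 80%, at 1 position.

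DNA covered with 15000 EMPs alone was richer in CpG than DNA covered in both libraries. This held at all 10 genes. Over their regions together, counted once where they overlap, bases under peaks of both libraries held 22.4 CpGs per kb, bases under peaks of 15000 EMPs alone 35.1 per kb and bases under no peak 13.5 per kb. On whole chromosomes the values were 21.5, 24.1 and 8.12 per kb. The 3589 bases under peaks of 500 EMPs alone were dense too, with 38.7 CpGs per kb, and at Foxf1 the 881 such bases held 65.8 per kb, so CpG-rich DNA was not called in the larger library alone. On whole chromosomes bases under peaks of 500 EMPs alone held 18.8 per kb. Foxf1, Foxc1 and Foxf2 had the densest DNA covered with 15000 EMPs alone, at 45.3, 44.5 and 41.4 CpGs per kb, against 25.1, 23.0 and 21.8 in DNA covered in both. Foxe1, with 31.9 against 24.9, and Foxl2, with 25.8 against 19.4, showed smaller differences. The part of CpG density in the open starts of the 500-EMP library was not tested.

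**Figure D4:**
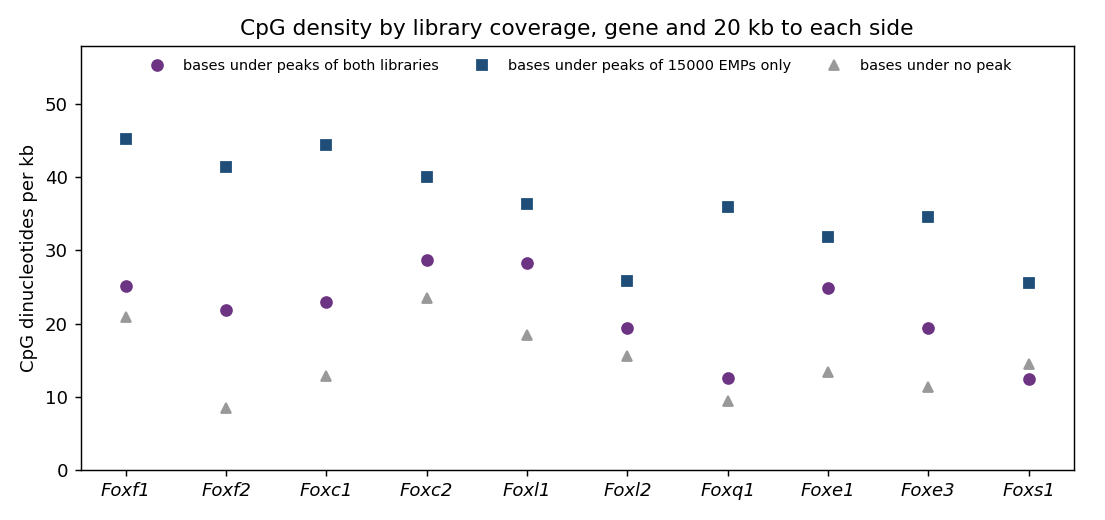
CpG dinucleotides per kb at each of the 10 genes and 20 kb to each side, in bases under peaks of both libraries (circles), under peaks of 15000 EMPs only (squares) and under no peak (triangles). The squares lie above the circles at all 10 genes, from 25.6 per kb at Foxs1 to 45.3 at Foxf1.

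CpG content at the start did not set the uncovered gene apart from all the covered ones. In the 1001 bp centred on the start, the 10 genes held 13 to 112 CpGs with a median of 78.5, against a median of 41 over all protein-coding genes and 68.5 over the other forkhead genes. Foxs1 had 32. Foxq1 had 13, the fewest, and was nonetheless covered in both libraries. The other forkhead genes with a peak in the 15000-EMP library had a median of 67 and those without one of 73. Over all protein-coding genes the difference ran the other way, as those with a peak had a median of 56. The number of exons was another shared feature, as 8 of the 10 genes had 1 exon in every annotated transcript. So did 5 of the other 34 forkhead genes, Foxb2, Foxd1, Foxd2, Foxd3 and Foxd4, and all 5 had a peak within 3 kb with 15000 EMPs, as had 13 of the 29 with more exons.

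Of the 86 peaks from 500 EMPs within 20 kb of the 10 genes, 84 (97.7%) overlapped a peak from 15000 EMPs by at least 1 bp, against 91.2% of all 500-EMP peaks. By length 95.3% of the DNA covered with 500 EMPs was covered in the larger library too, and 45.7% of the DNA covered with 15000 EMPs was covered in the smaller. On whole chromosomes 5529888 bases lay under peaks of both libraries, 413679 under peaks of 500 EMPs alone and 18415472 under peaks of 15000 EMPs alone. Most DNA covered with 500 EMPs was thus covered in the larger library across the genome too. Both unmatched peaks from 500 EMPs were narrow, one of 486 bp after Foxf2 and one of 137 bp before Foxs1. In the other direction 29 of 46 peaks (63.0%) had a counterpart, against 32.2% of all 15000-EMP peaks. The Wilson 95% intervals, which cover counting error only and treat neighbouring peaks as independent, were 91.9 to 99.4% and 48.6 to 75.5%. The 46 peaks had a median width of 1401 bp, against 770 bp over all 15000-EMP peaks. A wider peak meets the 1-bp rule more easily, and the part of width in these shares was not tested. The 17 unmatched peaks measured at most 1189 bp. Of these, 5 lay in the first 2 kb of Foxc1, Foxe1, Foxf1 and Foxl2, among them the peak over the Foxf1 start.

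Of the genes, 6 lie in 2 clusters that have been kept together through vertebrate evolution. The Foxq1, Foxf2 and Foxc1 cluster on chromosome 13 spans 296343 bp including 20 kb on each side, of which 7.41% was covered with 500 EMPs and 16.2% with 15000 EMPs. The Foxf1, Foxc2 and Foxl1 cluster on chromosome 8 spans 86259 bp, of which 29.2% and 45.9% was covered. In the chromosome 13 cluster each gene had a block of its own. Joining peaks less than 5 kb apart, a distance chosen after the peaks were seen, gave blocks of 12371 bp at Foxq1, 21046 bp at Foxf2 and 22472 bp at Foxc1 with 15000 EMPs. With 500 EMPs these measured 9768, 19506 and 14154 bp. Between Foxf2 and Foxc1 a stretch of 166503 bp held no peak with 500 EMPs, and 161039 bp held none with 15000 EMPs. Between Foxq1 and Foxf2 the longest open stretch was 48403 bp with 500 EMPs and 44581 bp with 15000 EMPs.

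The chromosome 8 cluster had a block of 23441 bp at Foxf1 and a block of 20198 bp over Foxc2 and Foxl1 with 15000 EMPs, and of 21772 and 18183 bp with 500 EMPs. Between them 20395 bp were open with 15000 EMPs and 21363 bp with 500 EMPs. That open stretch held most of Mthfsd, a gene named for a folate enzyme domain that lies between Foxf1 and Foxc2, and the Mthfsd start had no covered base within 3 kb in either library. A further small block of 1930 bp stood past Foxl1. By peak coverage the Foxf1 block was filled to 66.5% with 500 EMPs and 85.3% with 15000 EMPs, and the shared block to 57.8% and 89.0%.

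**Figure D5:**
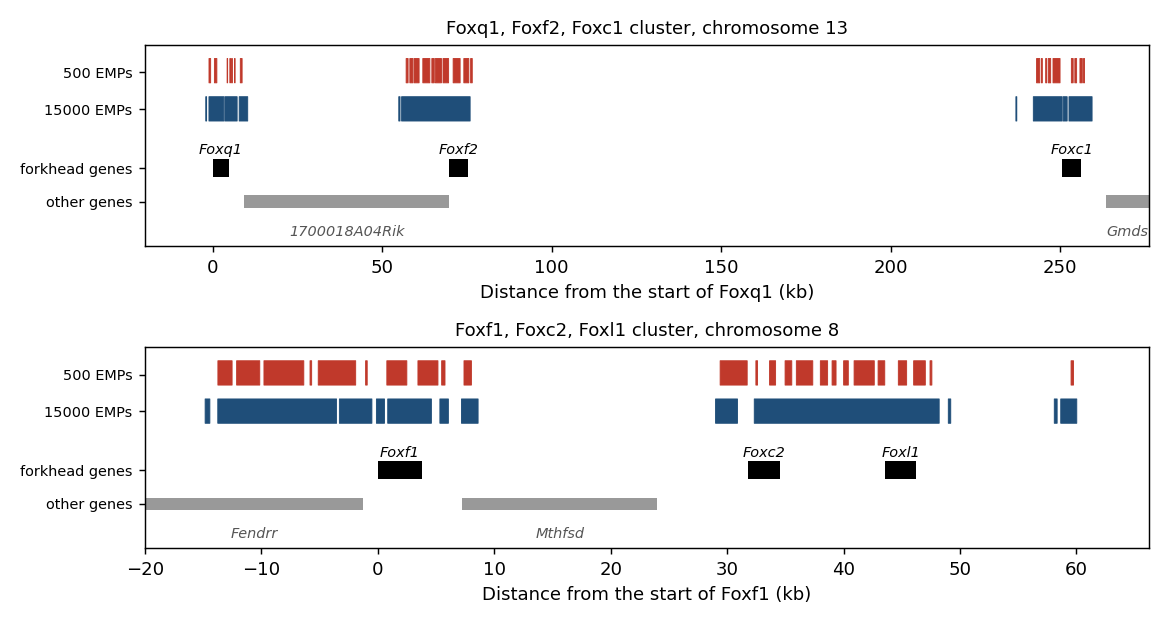
H3K27me3 peaks over both clusters by distance in kb from the start of Foxq1 (top) and of Foxf1 (bottom), with peaks from 500 EMPs in red, from 15000 EMPs in blue, forkhead genes in black and selected other genes in grey. Each chromosome 13 gene stands in a block of its own with 161039 bp open before Foxc1 in the 15000-EMP library, whereas Foxc2 and Foxl1 share a block.

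Another 15 protein-coding or long noncoding genes overlapped the 10 genes, lay within 20 kb or stood between cluster members. The noncoding 1700018A04Rik starts 24 bp from Foxf2 on the other strand, and thus had the same covered lengths, 4195 and 6001 bp. Fendrr starts 1276 bp from Foxf1 and had 3461 and 5090 bp covered within 3 kb of its own start. Gm12446, antisense to Foxe1, had 3002 and 5363 bp, Foxl2os 2378 and 4516 bp and Dusp15 2187 and 5938 bp. Gmds, which begins far away and ends near Foxc1, had no covered base in its 519162 bp in either library, and Mylk2 had none within 3 kb of its start with 500 EMPs and 1329 bp with 15000 EMPs. Gm11377 downstream of Foxq1 had 863 and 4099 bp and Gm11378 upstream of Foxf2 had 3992 and 6001 bp, both with the start under a peak in each library, while Gm11379 upstream of Foxc1 had 934 and 2271 bp. Gm20388 is annotated as a read-through gene of 4434882 bp across the chromosome 8 cluster, and had no peak near its own start.

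All genes of the Foxa, Foxb and Foxd groups, endoderm, neural and mesoderm regulators, had a peak near the start, and all of the Foxk and Foxr groups had none. Genes with peaks within 3 kb in both libraries included Foxa1, Foxa2, Foxa3, Foxb1, Foxb2, Foxd1, Foxd2, Foxd3, Foxd4, Foxi2, Foxi3, Foxn4, Foxo6 and Foxp2. Those of Foxj1, Foxo1 and Foxp4 were found with 15000 EMPs alone. The 16 with none in either library were Foxh1, Foxi1, Foxj2, Foxj3, Foxk1, Foxk2, Foxm1, Foxn1, Foxn2, Foxn3, Foxo3, Foxo4, Foxp1, Foxp3, Foxr1 and Foxr2. The 5 with the longest coverage with 15000 EMPs were Foxa2, Foxb1 and Foxd4 at 6001 bp, Foxi3 at 5735 bp and Foxa1 at 5453 bp.

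By the shape of coverage within 10 kb of the start with 15000 EMPs, scored as the shared fraction of covered 100-bp bins (Jaccard index), each gene was set against the other 43 forkhead genes. Among these, Foxf2 was most like Foxb1 (0.931) and Foxl1 (0.920). Foxe1 was most like Foxf2 (0.883), Foxc1 like Foxa2 (0.848) and Foxf1 like Foxl1 (0.828). Foxl2 was nearest to Foxa2 (0.794), Foxe3 to Foxd4 (0.676), and Foxq1 and Foxc2 to each other (0.703). Foxs1 reached at most 0.133 with any forkhead gene. Of all protein-coding genes, forkhead or not, an index of 0.8 or more was reached by 65 for Foxc1, 55 for Foxf2, 38 for Foxe3, 29 for Foxl1, 19 for Foxc2, 18 for Foxl2, 16 for Foxq1, 12 for Foxf1, 11 for Foxs1 and 10 for Foxe1. Over the 45 pairs of the 10 genes the median was 0.467. Covered bins ran from 20 of 200 at Foxs1 to 165 at Foxc1. Genes with much covered DNA share many bins by extent alone, and extent was not separated from shape.

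Hedgehog and vessel genes were read because FOXF factors act below hedgehog signals and FOXC factors in vessels. Both lists were written with earlier results of these data known, so their counts are descriptive. Among 6 hedgehog genes, peaks lay within 3 kb of 5 in the smaller library and of all 6 in the larger one, against 9.92% and 17.0% of all protein-coding genes. The median covered lengths were 1234 and 3823 bp. Gli3 was the gene without one in the smaller library. Among 10 endothelial genes the counts were 6 and 7, Kdr being the addition, with medians of 409.5 and 2471 bp. Pecam1, Cdh5 and Tek had none in either library.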

How the data were processed

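Processed peak lists of 2 H3K27me3 CUT&RUN libraries were used. Per the labels and the methods, the authors aligned reads to mm10 (GRCm38) with Bowtie2 2.2.1, called broad peaks with MACS2 2.1.2 against IgG, with a stricter p-value threshold for 500 EMPs, and annotated them with ChIPpeakAnno. A listing of commands in the study's reporting summary exchanges the library names under the thresholds; the lists are used as labelled. The deposited peak lists used here hold positions, nearest genes and distances, with no count or signal, so the depth behind a peak is unknown. Signal tracks were not used here.

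Starts were read from GENCODE vM21 (same assembly). Peaks were taken from the lists, and all 10516 and 15810 rows of the annotated tables had ends 1 bp above these. A gene was counted when a peak overlapped its window by 1 bp. Covered length is bases under peaks. Interval functions were checked on simulated data against base-by-base counts. CpG was read from GRCm38.p6. Members and gene lists were chosen with earlier results of these data known. All 10 members, their neighbours, forkhead genes without a peak and the 5 longest covered were named. Some results are not reported here. Python 3.11.15 and scipy 1.17.1 were used. Alternatives were other windows (1 and 5 kb), the authors' distance column, joined peaks, a width minimum of 500 bp, other transcript starts and stricter overlap.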

Additional observations from a re-analysis of the deposited data

Results flagged for a closer look

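The annotated tables gave Foxl1 many peaks that no count above used, because they lie more than 20 kb beyond the gene. These were 13 of its 22 peaks with 500 EMPs and 36 of its 40 with 15000 EMPs. They lay 29141 to 196939 bp and 28813 to 203947 bp past the gene, with median widths of 320 and 538 bp. The widest measured 995 and 4501 bp. They covered 2.96% of a span of 168186 bp with 500 EMPs and 18.2% of 175578 bp with 15000 EMPs. The noncoding genes 5033426O07Rik and Gm26815 lie in both spans. Of the 13 peaks from 500 EMPs 12 overlapped a peak from 15000 EMPs, while 11 of the 36 peaks from 15000 EMPs overlapped one from 500 EMPs. The nearest-gene rule of the tables gives them to Foxl1, and whether they belong to it was not tested. Foxe1 likewise had 2 of its 7 peaks with 15000 EMPs beyond 20 kb, up to 51867 bp upstream.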

How the results depend on the processing

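Counts of the 10 genes and of other forkhead genes with a peak within 3 kb stayed within 1.5 times under every alternative run, at 9 of 10 in each case for the former. The open starts depended on the joining of peaks. With 500 EMPs, joining peaks up to 1 kb apart put 1 start under a joined peak, and joining up to 3 kb put 8, against 8 and 9 with 15000 EMPs. Under the 3-kb joining the medians with 500 EMPs became 5692 bp within 3 kb of the start and 17229 bp within 20 kb of the gene, the Foxq1, Foxf2 and Foxc1 cluster 37051 bp and 5 blocks, and the Foxf1, Foxc2 and Foxl1 cluster 40163 bp. Block joining at 3 and 10 kb was added after seeing the data. The recovered share of peaks from 500 EMPs became 2.33% when at least 50% of both peaks had to overlap, 100% with joined peaks and 100% with peaks of at least 500 bp. That of peaks from 15000 EMPs became 23.9% at 50% of the peak, 4.35% at 50% of both and 84.6% with joined peaks. The unequal peak widths of the libraries limit the overlap of both peaks by construction. No paired analysis was possible because each group held 1 library. Without read counts, a gap in a list cannot be told from signal under the threshold, and no precision could be given for a length.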
